A study of Mus musculus with 4 samples.

Results

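The immediate early response genes followed here were Fos, Fosb, Jun, Junb, Egr1, Atf3, Dusp1, Zfp36, Nr4a1 and Ier2. They were the 10 rows with these symbols among the 25819 rows of the deposited expression table, chosen by name, and each symbol occurred once. Immediate early genes are transcribed within minutes of a stimulus, from factors already present in the cell, such as SRF with its ternary complex partners and CREB. Their transcripts are short-lived, often through AU-rich elements that mark an mRNA for decay. They are known both as the first nuclear response to growth factors and as genes induced when tissue is dissected or handled. Fos, Fosb, Jun, Junb and Atf3 encode leucine zipper proteins that pair into AP-1 and related dimers. Egr1 encodes a zinc finger factor and Nr4a1 an orphan nuclear receptor. Dusp1 encodes a phosphatase that switches off MAP kinases, Zfp36 encodes tristetraprolin, which binds AU-rich elements and speeds decay, and Ier2 encodes a nuclear protein of less defined role.

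RNA-Seq was performed on whole urogenital sinus (UGS), the embryonic tube that gives rise to the prostate, urethra and bladder neck, from male mouse embryos. There were 4 libraries: wild type at E16.5, Tbx18Gfp/Gfp at E16.5, wild type at E18.5 and Tbx18Gfp/Gfp at E18.5, and values below are given in this order. Tbx18Gfp is a knock-in of GFP that inactivates Tbx18, a T-box factor of the UGS mesenchyme, in every cell of the embryo. Per the methods the embryos were of a B6C3-F1 hybrid background and the wild type embryos were littermates of the mutants. Each library held RNA pooled from 3 embryos, so each genotype and stage had 1 library, and a comparison of 2 libraries had no replicate error, so no test was made and no p-value is given. Levels are FPKM, which divides the reads of a gene by its length and by the depth of the library. A value in FPKM per whole UGS cannot tell fewer cells of a type from less RNA per cell.

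The promoters of members with contrasting levels are shown first, as the 250 bases before the annotated start in RefSeq on GRCm38.p6, read 5′ to 3′ on the strand of the gene. Of the 10 members, 8 matched an entry of the promoter table used, and Ier2 and Egr1 did not. Fos (chr12:85473640-85473889, plus strand) and Junb (chr8:84978749-84978998, minus strand) were lower in E18.5 wild type UGS than in the other libraries, while Jun (chr4:95052223-95052472, minus strand), Dusp1 (chr17:26508473-26508722, minus strand) and Zfp36 (chr7:28379229-28379478, minus strand) were not. Capitals mark the cyclic AMP response element TGACGTCA, its core TGACG on either strand, the TATA box TATAAA of Fos and the CArG box of Zfp36.
Fos: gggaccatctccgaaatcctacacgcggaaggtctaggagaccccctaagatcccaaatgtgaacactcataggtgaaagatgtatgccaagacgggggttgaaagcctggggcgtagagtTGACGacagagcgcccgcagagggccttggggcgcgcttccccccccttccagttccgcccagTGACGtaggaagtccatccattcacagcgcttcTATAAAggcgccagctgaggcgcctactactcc
Junb: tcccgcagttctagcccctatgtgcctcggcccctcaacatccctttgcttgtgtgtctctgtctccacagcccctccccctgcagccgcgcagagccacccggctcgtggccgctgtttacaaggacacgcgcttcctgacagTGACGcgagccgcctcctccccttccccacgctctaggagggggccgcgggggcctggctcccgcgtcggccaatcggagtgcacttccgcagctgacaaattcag
Jun: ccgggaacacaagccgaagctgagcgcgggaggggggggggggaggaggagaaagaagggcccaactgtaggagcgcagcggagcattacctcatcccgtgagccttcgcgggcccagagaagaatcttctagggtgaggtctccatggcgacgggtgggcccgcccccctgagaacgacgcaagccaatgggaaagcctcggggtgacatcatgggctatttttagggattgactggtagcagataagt
Dusp1: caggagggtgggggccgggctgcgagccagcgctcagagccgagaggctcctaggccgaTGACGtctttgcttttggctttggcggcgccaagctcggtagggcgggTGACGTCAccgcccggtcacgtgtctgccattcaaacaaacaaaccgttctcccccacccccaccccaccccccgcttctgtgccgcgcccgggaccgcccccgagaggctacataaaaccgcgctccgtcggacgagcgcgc
Zfp36: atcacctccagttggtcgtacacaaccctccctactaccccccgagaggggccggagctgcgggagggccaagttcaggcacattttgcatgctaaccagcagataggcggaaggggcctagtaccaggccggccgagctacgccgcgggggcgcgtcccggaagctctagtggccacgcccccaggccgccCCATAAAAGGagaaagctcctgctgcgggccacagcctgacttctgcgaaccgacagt

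The core TGACG, the sequence at which CREB and ATF proteins are known to bind, was found on either strand in 6 of the 8 promoters (Fos, Fosb, Junb, Atf3, Nr4a1 and Dusp1), and in 17.8% of all 32851 promoters of the table. In Fos it began 129 and 66 bases before the start, and in Junb 106 bases before it. The full element TGACGTCA, within which 2 of these cores overlap, was found in Dusp1 alone of the 8, 143 to 136 bases before the start. It was found in 1.55% of all promoters. The CArG box, CC and GG around 6 bases of A or T, is the site of SRF. It was found in Zfp36 alone among the 8 promoters searched, 58 to 49 bases before the start, and in 1.47% of all promoters. The EGR site GCGNGGGCG was found in 3 of the 8 (Fosb, Zfp36 and Nr4a1) and in 4.70% of all promoters. The GC box GGGCGG was found in 7 of the 8, all but Junb, and in 32.7% of all promoters. TATAAA was found in Fos alone of the 8 and in 12.4% of all promoters. The AP-1 site TGANTCA was found in 0 of the 8 and in 6.75% of all promoters. These are matches of letters in a window of 250 bases. Sites further from the start, and the promoters of Egr1 and Ier2, were not searched. The core was held by Fos, Junb, Atf3 and Nr4a1, which were lowest in E18.5 wild type, and by Fosb and Dusp1, which were not. Jun and Zfp36, also not lowest there, lacked it in this window. A link between motif and level was not tested.

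The libraries were not alike as a whole. From the FPKM of single reads on olfactory receptor genes, they held about 64000000, 55700000, 29000000 and 52400000 mapped reads, so E18.5 wild type was the shallowest. It also stood apart in level: of 15023 genes with at least 1 FPKM in any library, 63.7% were lowest in E18.5 wild type. Among 16 housekeeping genes, 0 differed 2-fold or more between genotypes at E16.5, while at E18.5 4 were at least 2-fold higher and 3 at least 2-fold lower in the mutant. Polr2a, which encodes the largest subunit of RNA polymerase II, had 39.4, 37.6, 88.2 and 29.4 FPKM. Tbx18 itself had 3.47, 2.50, 3.16 and 2.93 FPKM, values that do not separate transcript of the knock-in allele from transcript of an intact one. Every comparison that uses E18.5 wild type carries these differences, and they cannot be told apart from genotype or stage with 1 library each.

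Cell type markers were checked in the same libraries. All 12 epithelial markers and 11 of 12 mesenchymal markers of the UGS had at least 1 FPKM in every library. Summed smooth muscle markers (8 genes) had 1160, 613, 1338 and 3656 FPKM, with 8 of 8 higher in the mutant at E18.5, and summed skeletal muscle markers (8 genes) had 524, 206, 307 and 642 FPKM. Of the skeletal muscle markers 3 of 8 were higher in the mutant at E18.5, 2 of them at least 2-fold, and 1 was at least 2-fold lower, with a median log2 ratio of −0.35. Summed erythroid markers (7 genes) had 17926, 28870, 5860 and 28491 FPKM, and Hbb-bh1 was listed at 0 in E18.5 wild type. Neutrophil markers (8 genes) summed to 10.3, 76.7, 11.2 and 6.77 FPKM, and Elane was listed at 0 in E18.5 Tbx18Gfp/Gfp. The macrophage and other leukocyte markers (9 genes) summed to 48.3 to 60.2 FPKM and the endothelial markers (8 genes) to 114 to 130 FPKM. These sums hide differences between genes. At E18.5, 5 of 8 endothelial markers were higher in the mutant, 3 of them at least 2-fold, and 0 were at least 2-fold lower. Of 7 leukocyte markers that reached 1 FPKM, 6 were higher in the mutant at E18.5, 1 of them at least 2-fold. Of all genes, 15.1% were at least 2-fold higher there. The neuron and Schwann cell markers (8 genes) summed to 174 to 330 FPKM. The epithelial sum was 512 to 692 FPKM and the mesenchymal sum 1910 to 2303 FPKM. The part of these cell types in the levels of immediate early genes was not tested.

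All 10 immediate early genes were detected in all 4 libraries, and 9 had at least 1 FPKM in each. Within a library they ranged from Fosb, with 0.277 to 0.643 FPKM, to Jun, with 25.8 to 30.7 FPKM, so Jun transcript was the most abundant per length and Fosb the least in every library. The median member had 9.13, 8.51, 6.63 and 8.37 FPKM. The estimated reads behind a value ranged from 53 for Fosb in E18.5 wild type to 5376 for Jun in E16.5 wild type. The intervals of 95% given below come from these read numbers, by the exact Poisson method for a level and the exact binomial method for a ratio, and cover counting error only, not differences between embryos or libraries.

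**Figure D1:**
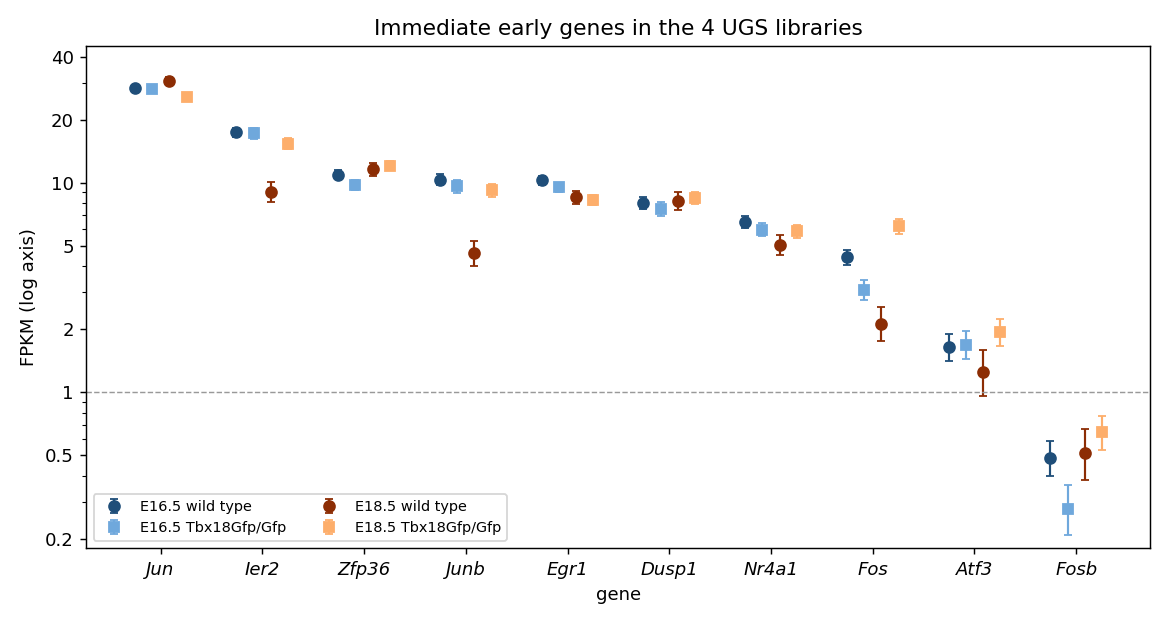
FPKM of the 10 immediate early genes (log axis) in the 4 libraries, 1 point per library, with 95% counting intervals as bars; the dashed line marks 1 FPKM. The E18.5 wild type point lies apart below the other libraries for Ier2 (9.03 FPKM) and Junb (4.63 FPKM), and the 4 points of Fos spread from 2.13 to 6.20 FPKM.

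Among the AP-1 genes, Fos varied most. Fos (chromosome 12, 86814851 to 86818219 in the positions of the table) had 4.41 FPKM in E16.5 wild type (95% counting interval 4.04 to 4.798), 3.09 in E16.5 Tbx18Gfp/Gfp (2.76 to 3.44), 2.13 in E18.5 wild type (1.76 to 2.55) and 6.20 in E18.5 Tbx18Gfp/Gfp (5.72 to 6.71). No interval overlapped another, so Fos was highest in the E18.5 mutant and lowest in the E18.5 wild type, with both E16.5 libraries between. The highest level was 2.92 times the lowest, the widest range of the 10 members. Fosb (chromosome 7, 19888045 to 19895394), a close relative of Fos, had 0.487, 0.277, 0.512 and 0.643 FPKM. Its interval in E16.5 Tbx18Gfp/Gfp (0.208 to 0.360) lay below the others, which overlapped one another. The pair moved differently in part: Fosb per Fos was 0.110, 0.0898, 0.241 and 0.104, so that E18.5 wild type, where Fos was lowest, had the highest share of Fosb.

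The Jun genes differed from each other. Jun (chromosome 4, 94715727 to 94718913) had 28.3, 28.1, 30.7 and 25.8 FPKM and spanned only 1.19 times from lowest to highest. It was the 1 member that was highest in E18.5 wild type, and it was lowest in the E18.5 mutant. Both E16.5 levels overlapped within counting error and lay between. Junb (chromosome 8, 87500811 to 87502617), often opposed to Jun in growth control, had 10.3, 9.60, 4.63 and 9.22 FPKM. Its E18.5 wild type interval (4.03 to 5.29) was clear of the rest, and the other libraries overlapped their neighbours in order. Atf3 (chromosome 1, 192994175 to 193007212), a stress-induced factor of the ATF family, had 1.64, 1.68, 1.25 and 1.94 FPKM. E18.5 wild type was again lowest, but each library overlapped its neighbour in order within counting error.

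The other transcription factors varied less. Egr1 (chromosome 18, 35020861 to 35024610) had 10.3, 9.52, 8.53 and 8.27 FPKM, higher at E16.5 than at E18.5 in both genotypes as deposited, with neighbours in order overlapping. In wild type the log2 ratio of E18.5 to E16.5 was −0.27, and it turned to between 0.024 and 0.44 with library sums, medians or upper quartiles made equal or with a trend on length and GC content subtracted. Nr4a1 (chromosome 15, 101097277 to 101105226) had 6.51, 5.98, 5.05 and 5.87 FPKM, again with overlap between neighbours. From highest to lowest Egr1 spanned 1.24 times and Nr4a1 1.29 times.

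The feedback genes also varied little. Dusp1 (chromosome 17, 26642536 to 26645417) had 7.99, 7.499, 8.21 and 8.47 FPKM, a range of 1.13 times in which the intervals of all 4 libraries overlapped. Zfp36 (chromosome 7, 29161803 to 29164247) had 10.9, 9.73, 11.6 and 12.1 FPKM, with E16.5 Tbx18Gfp/Gfp lowest. The gap was narrow, as its interval ended at 10.30 and that of E16.5 wild type began at 10.38. Neither gene was low in E18.5 wild type. Ier2 (chromosome 8, 87185230 to 87186751) had 17.4, 17.2, 9.03 and 15.3 FPKM. Like Junb, it had similar levels in 3 libraries and an E18.5 wild type level (8.10 to 10.04) clear of them.

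Across the 10 members, E18.5 wild type was the lowest library for 5 (Fos, Junb, Atf3, Nr4a1 and Ier2), E16.5 Tbx18Gfp/Gfp for 3 and E18.5 Tbx18Gfp/Gfp for 2. A lowest place in E18.5 wild type, held by 63.7% of all genes with at least 1 FPKM in any library, was thus no more frequent among them than in the table. Fos and Atf3 were both lowest in E18.5 wild type and highest in the E18.5 mutant, an order shared by 15.6% of all such genes.

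The first comparison asked which genes differed between genotypes at E16.5. Immediate early genes differed little there. Of the 9 members that reached 1 FPKM in 1 library or both, 0 were at least 2-fold higher in Tbx18Gfp/Gfp (0.481% of all 14761 genes were) and 0 were at least 2-fold lower (1.17% of all genes were). Fos had the largest difference, 1.43-fold lower in the mutant (95% counting interval 1.24 to 1.64), and 3.27% of all genes had a lower ratio. Fosb, left out by the filter, was 1.76-fold lower (1.26 to 2.47) at levels under 1 FPKM. The ratios of the other members lay between 0.892 for Zfp36 and 1.02 for Atf3. In all, 8 of 9 were lower in the mutant, with a median log2 ratio of −0.11 beside 0.01 over all genes tested. Of these, Jun, Junb, Dusp1, Nr4a1 and Ier2 had counting intervals that included a ratio of 1. The share of all genes lower in the mutant was not counted. The summed neutrophil markers had 76.7 FPKM in the mutant beside 10.3 FPKM in wild type. Smooth muscle markers were lower in the mutant for 8 of 8, 3 of them at least 2-fold. Skeletal muscle markers were at least 2-fold lower for 8 of 8. A link between these markers and the members was not tested.

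The second comparison asked the same at E18.5. Here Fos had the highest ratio of the members. Its level of 6.20 FPKM in Tbx18Gfp/Gfp, beside 2.13 FPKM in wild type, was 2.92-fold higher (95% counting interval 2.39 to 3.59). Of all genes, 95.5% had a lower ratio. Fos was the 1 member of 9 that was at least 2-fold higher, beside 15.1% of all 14733 genes tested, and 0 were at least 2-fold lower, beside 2.89% of all. Junb was 1.99-fold higher (1.71 to 2.33), just under that threshold. Ier2 was 1.70-fold higher (1.503 to 1.925) and Atf3 1.55-fold higher (1.17 to 2.11). These genes made 4 of 9 at least 1.5-fold higher, while 33.2% of all genes were. Jun was 1.19-fold lower in the mutant (1.13 to 1.25). Egr1, Dusp1 and Zfp36 had ratios of 0.970, 1.03 and 1.04, with counting intervals that included 1, and Nr4a1 had a ratio of 1.16 (1.02 to 1.32). The counting interval of Fosb (ratio 1.25, 0.901 to 1.77) also included 1. The median log2 ratio of the members was 0.22, below the 0.31 of all genes tested, so the middle of the group was not above that of the table.

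**Figure D2:**
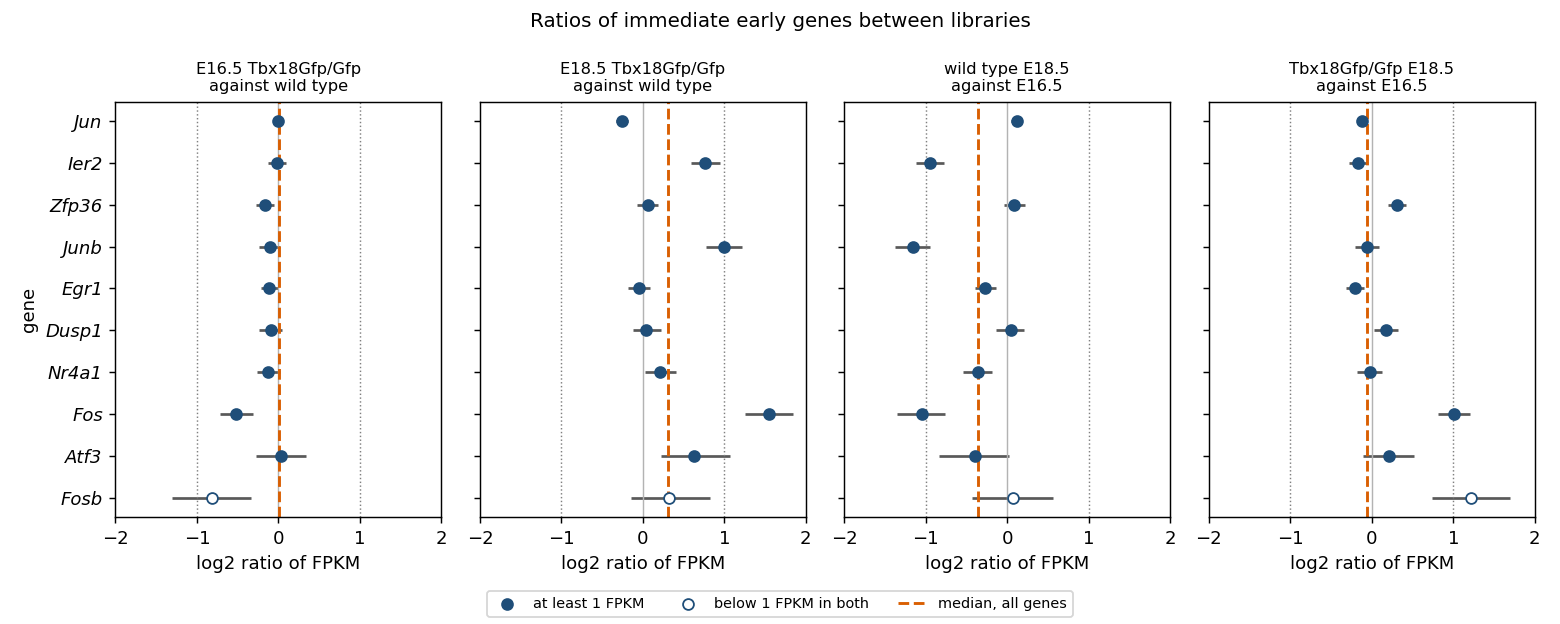
Log2 ratio of FPKM for each immediate early gene (rows) in the 4 comparisons (panels), with 95% counting intervals as bars; dotted lines mark 2-fold, the dashed line is the median of all genes tested and the open point is Fosb, below 1 FPKM. Members lie close to 0 at E16.5 apart from Fos (−0.52) and Fosb, whereas at E18.5 Fos reaches 1.55 and Junb 1.00, and both are lower in E18.5 than in E16.5 wild type.

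The next comparison set the stages side by side within wild type, and it again used the E18.5 wild type library. Against E16.5, E18.5 wild type had 2.23-fold less Junb (95% counting interval 1.93 to 2.60), 2.07-fold less Fos (1.69 to 2.55) and 1.93-fold less Ier2 (1.71 to 2.18). So 2 of 9 members were at least 2-fold lower, beside 16.8% of all 14807 genes, and 3 were at least 1.5-fold lower, beside 35.9% of all. At least 2-fold higher were 0 members, beside 2.70% of all genes. Jun, Dusp1 and Zfp36 had ratios of 1.09, 1.03 and 1.06, and Egr1, Nr4a1 and Atf3 ratios of 0.830, 0.776 and 0.762. The median log2 ratio was −0.37, close to the −0.35 of all genes. Relative to the median of genes that reached 1 FPKM in both, Junb was −0.83, Fos −0.72 and Ier2 −0.62, none of them 2-fold, and with the length and GC trend subtracted Fos was −0.53, Junb −0.02 and Ier2 0.12.

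Within Tbx18Gfp/Gfp the members were more alike between stages. Fos was 2.01-fold higher at E18.5 than at E16.5 (95% counting interval 1.75 to 2.30), and 98.7% of all genes had a lower ratio. It was 1 of 9 members at least 2-fold higher, beside 1.35% of all 14713 genes, and 0 were at least 2-fold lower, beside 0.571% of all. Fosb was 2.32-fold higher (1.67 to 3.25) but under 1 FPKM at both stages. Junb and Ier2, which differed between the wild type libraries, had ratios of 0.960 and 0.892 here. Zfp36 was 1.24-fold higher (1.15 to 1.34) and Egr1 1.15-fold lower (1.07 to 1.24). With library sums made equal the log2 ratio of Fos was 0.98, under 2-fold. The median was −0.03, beside −0.06 over all genes. These comparisons share libraries in pairs and are not independent of each other.

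As a further comparison, chosen after the levels were seen, E18.5 Tbx18Gfp/Gfp was set against E16.5 wild type, which leaves out the E18.5 wild type library but mixes genotype with stage. There 0 of 9 members were at least 2-fold higher, beside 1.23% of all 14766 genes, and 0 at least 2-fold lower, beside 1.28% of all. Fos was 1.41-fold higher (95% counting interval 1.25 to 1.58), with 96.0% of all genes at a lower ratio. Junb was 1.12-fold lower (1.02 to 1.23). So Fos was higher in the E18.5 mutant than in every other library, while the 1.99-fold difference of Junb at E18.5 was not seen against E16.5 wild type.

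Since the E18.5 libraries differed as a whole, the ratios of members were recomputed under other scalings. Over genes that reached 1 FPKM in both, the median log2 ratio at E18.5 was 0.29, and relative to it Fos was 1.26, Junb 0.71, Ier2 0.48 and Atf3 0.34, while Jun was −0.54, Egr1 −0.33, Dusp1 −0.24, Zfp36 −0.23 and Nr4a1 −0.07. Fos was the 1 member past 2-fold as deposited. It stayed past 2-fold with library sums made equal (1.12), the upper quartile made equal (1.29) and a trend on length and GC content subtracted (1.05). As deposited, its counting interval ran from 1.26 to 1.84 in log2, so 1.12 and 1.05 lay below that interval and near the threshold. The share of all genes past 2-fold under these scalings was not counted. The number of members higher in the mutant was 7 of 9 as deposited and 4 of 9 after each of the 3 overall scalings. It was 2 of 9 after the trend was subtracted. The share of all genes higher in the mutant was not counted in any of these settings. As deposited, the median log2 ratio of all genes tested was 0.31, so these counts are not a trait of the members. Zfp36, Dusp1 and Nr4a1 changed direction under all 4 scalings, and Junb (−0.04) and Ier2 (−0.22) with the trend alone.

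**Figure D3:**
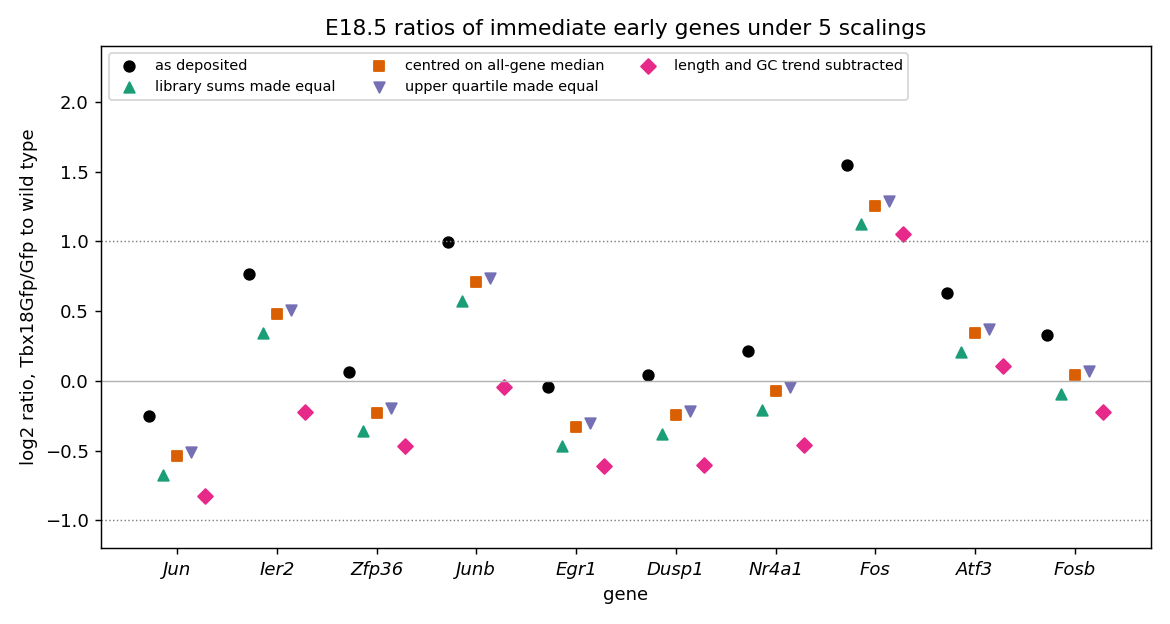
Log2 ratio of Tbx18Gfp/Gfp to wild type at E18.5 for each immediate early gene, as deposited and under 4 other scalings (symbols); dotted lines mark 2-fold. Fos alone lies above 2-fold under all 5, from 1.05 to 1.55, and Junb and Ier2 lie near or below 0 once a trend on length and GC content is subtracted.

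The GC content of the transcripts moved with the E18.5 ratios. Across 10 bins of genes ordered by GC content, the median log2 ratio of all genes was −0.05 in the lowest bin and 0.83 in the highest. Junb, at 62.6% GC, and Ier2, at 60.9%, were in the highest bin, and 98.4% and 96.6% of expressed genes had a lower GC content. Their log2 ratios of 1.00 and 0.76 were near the median of that bin and within its interquartile range, 0.39 to 1.21. Fos, at 51.9% GC, was in bin 6, whose median was 0.35 and whose interquartile range ran from −0.0048 to 0.68, and its 1.55 lay above that range. Jun, Dusp1, Zfp36, Egr1 and, by a small margin, Nr4a1 lay below the interquartile range of their bins, and Atf3 lay within it.

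**Figure D4:**
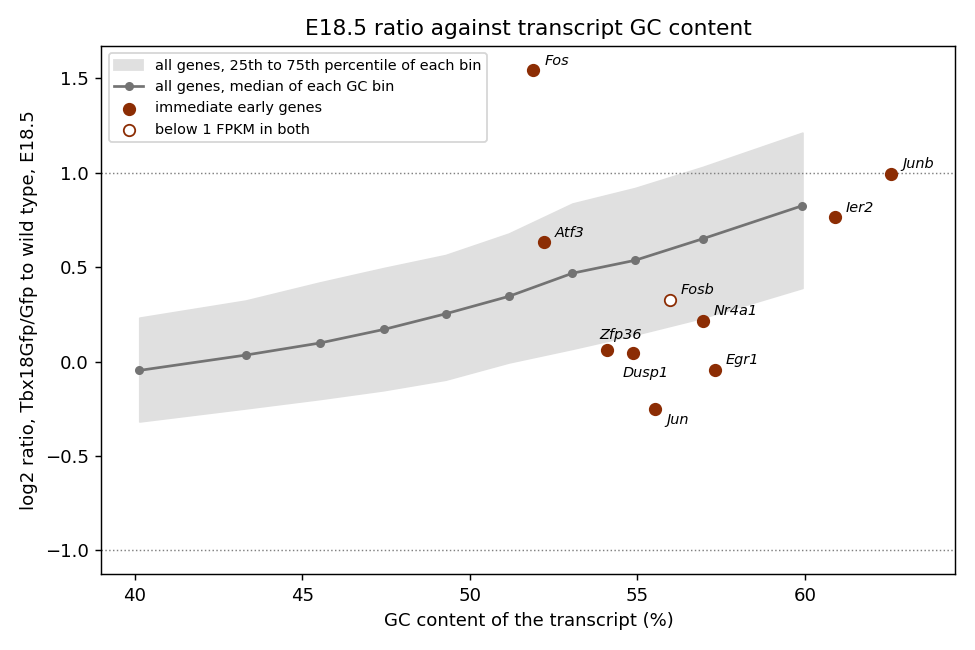
Log2 ratio of Tbx18Gfp/Gfp to wild type at E18.5 against the GC content of the transcript in percent, for the immediate early genes (points; the open point is Fosb) and for all genes that reached 1 FPKM in both (line, median of each of 10 bins; band, the 25th to 75th percentile). Fos lies above the band of all genes at its GC content, Junb and Ier2 lie with the genes of highest GC content, Jun, Dusp1, Zfp36 and Egr1 lie below the band, and Nr4a1 lies at its lower edge.

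Ratios of 2 genes within a library do not depend on a scaling that multiplies all genes of a library alike, although a trend on length and GC content, which differs by gene, does alter them. Fos per Jun was 0.156 in E16.5 wild type (95% counting interval 0.142 to 0.1705), 0.110 in E16.5 Tbx18Gfp/Gfp (0.0980 to 0.123), 0.0692 in E18.5 wild type (0.0571 to 0.0834) and 0.241 in E18.5 Tbx18Gfp/Gfp (0.221 to 0.262). The 4 intervals did not overlap, and the E18.5 libraries held the extremes. Junb per Jun was 0.366, 0.342, 0.151 and 0.358, and Ier2 per Jun was 0.616, 0.612, 0.294 and 0.595. Both were low in E18.5 wild type alone, with overlapping intervals in the other libraries. Dusp1 per Jun was 0.283, 0.267, 0.267 and 0.329, and Zfp36 per Jun was 0.386, 0.347, 0.377 and 0.469. For these feedback genes the E18.5 mutant was highest and E18.5 wild type lay with the E16.5 libraries. Jun itself was highest in E18.5 wild type (30.7 FPKM) and lowest in the E18.5 mutant (25.8 FPKM). Part of each contrast per Jun between the E18.5 libraries is therefore that of Jun. In FPKM the intervals of Dusp1 overlapped in all 4 libraries.

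Other genes of the early response were read from 8 pathway lists. At E16.5, 0 of their genes differed 2-fold or more between genotypes, beside 0.481% of all genes higher and 1.17% lower. At E18.5 their counts are to be read against the 15.1% of all genes at least 2-fold higher. At E18.5, the AP-1 family beyond the members had 2 of 12 tested genes at least 2-fold higher in the mutant and 0 lower, beside 2.89% of all genes, and a median log2 ratio of 0.45 beside 0.31. The 2 were Jund, the AP-1 subunit linked to quiescence, with 57.5, 60.2, 24.0 and 51.8 FPKM, and Batf3, a partner of Jun proteins, with 4.15, 5.12, 1.52 and 3.45 FPKM. Both had the Junb pattern of a low level in E18.5 wild type alone, at 67.1% and 62.8% GC, and with the GC trend subtracted the log2 ratio of Jund became −0.13 and that of Batf3 0.12.

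Among other early transcription factors, 5 of 25 tested genes were at least 2-fold higher and 1 lower in the E18.5 mutant, with a median of 0.44. Id3, an inhibitor of helix-loop-helix factors, had the highest ratio, with 149, 198, 40.5 and 160 FPKM. Klf4, a factor of epithelial differentiation, had 9.51, 7.59, 5.90 and 13.3 FPKM and Cebpd 4.48, 5.25, 2.76 and 6.40 FPKM. Klf5, a proliferative relative of Klf4, was the gene lower in the mutant, with 23.1, 18.1, 65.2 and 14.3 FPKM. Its level was high in E18.5 wild type alone. Npas4, an activity-dependent factor of neurons, had 0.735, 0.510, 0.742 and 1.18 FPKM. It was named for its 2.31-fold higher level at E18.5 than at E16.5 in the mutant, not for a 2-fold difference between genotypes. It reached 1 FPKM in the E18.5 mutant alone, so it passed the filter through that library only.

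Among MAP kinase and cytokine feedback genes beyond Dusp1, 3 of 23 were at least 2-fold higher in the E18.5 mutant and 0 lower, with a median of 0.31 beside the 0.31 of all genes. They were Dusp2, a nuclear phosphatase related to Dusp1, with 2.51, 3.25, 0.662 and 2.12 FPKM, and the cytokine signalling inhibitors Socs1, with 5.004, 6.24, 1.78 and 5.56 FPKM, and Socs3, with 6.00, 6.67, 2.60 and 6.23 FPKM. Again E18.5 wild type was the low library for each. Of 12 AU-rich element and decay factors, 1 was at least 2-fold higher, the deadenylation factor Btg2 with 13.2, 13.6, 7.09 and 15.0 FPKM, and 1 lower, Hnrnpd with 40.1, 38.0, 70.0 and 34.1 FPKM. Their median was 0.0036.

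Other early response genes had 6 of 27 at least 2-fold higher in the E18.5 mutant and 0 lower, with a median of 0.60. Pim3, a kinase, had 9.84, 9.89, 2.44 and 8.51 FPKM and Ier5l 8.41, 9.52, 2.95 and 8.29 FPKM, with a low level in E18.5 wild type alone. Hbegf, an EGF receptor ligand, was the gene of this list with the lowest ratio of E18.5 to E16.5 wild type, at 18.1, 17.8, 4.22 and 11.9 FPKM.

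The upstream pathway of SRF, ternary complex factors, CREB and MAP kinases had 3 of 37 tested genes at least 2-fold higher in the E18.5 mutant and 0 lower, with a median of 0.13. They were the kinases Map2k2, with 28.3, 28.2, 7.72 and 26.0 FPKM, Mapkapk2, with 42.0, 43.6, 18.1 and 46.5 FPKM, and Map2k1, with 23.4, 22.5, 11.99 and 25.5 FPKM. Genes of other stress responses were set beside these. Heat shock genes had 3 of 17 at least 2-fold higher and 0 lower, with a median of 0.34. Dnajb1 had 19.0, 19.9, 7.36 and 18.8 FPKM, Hspa1b 6.73, 5.93, 3.97 and 9.89 FPKM and Hspa1a 4.73, 4.26, 2.60 and 6.20 FPKM. Hspa1a and Hspa1b are near-identical copies whose reads can be split in counting, so the value of either is uncertain. Both were highest in the E18.5 mutant and lowest in E18.5 wild type, as Fos and Atf3 were. ATF4 and unfolded protein response genes had 2 of 15 at least 2-fold higher and 0 lower, with a median of 0.71. They were Phgdh, of serine synthesis, with 39.1, 45.4, 16.1 and 39.7 FPKM, and Atf4 with 66.0, 63.9, 36.6 and 74.5 FPKM. With the length and GC trend subtracted, Klf5 (−2.42) and Id3 (1.24) stayed past 2-fold at E18.5. The other pathway genes named for a 2-fold difference between genotypes at that stage lay between −0.90 for Hnrnpd and 0.90 for Dnajb1, under 2-fold. No cause of these differences was tested.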

How the data were processed

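Whole UGS RNA was pooled from 3 embryos per library. Per the labels and methods, the authors made stranded mRNA libraries, read them single-end, aligned reads with TopHat2 2.1.0 at default options and estimated FPKM with Cufflinks 2.2.1. The submitters' processing notes also name CASAVA 1.8.2 and Trimmomatic 0.30. The genome build is not given in the sources used here, and positions of the deposited table differ from GRCm38. Starts are given counted from 1. The deposited FPKM were used unscaled.

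Ratios were taken for genes that reached 1 FPKM in 1 library or both and counted at 2-fold and 1.5-fold. No test was made, since there was 1 library per group. Depth was estimated from 15 to 27 olfactory receptor genes per library at the FPKM of a single read. Reads per gene were estimated from that depth and GENCODE M21 transcript lengths. For Zfp36 the span of the locus, 2445 bases, was used in place of a transcript length, so its reads and counting intervals are less certain. For 83.9% of expressed genes length and GC content were matched by symbol, and a lowess trend (span 0.3) was subtracted as an alternative. Members and lists were chosen with earlier results of these data known. All members were named, and from the pathway lists genes past 2-fold with at least 10 estimated reads in both libraries, up to 3 higher and 3 lower per list and comparison. A gene that met this rule is not reported here. Steps were tested on simulated data. Other alternatives were library sums, median and upper quartile (75th percentile) scaling, pseudocounts of 0.1 and 1, no filter, at least 5 FPKM, and E16.5 wild type as the E18.5 control, the last chosen after seeing the data. Software versions were statsmodels 0.14.6, matplotlib 3.10.9, scipy 1.17.1, numpy 2.4.6, pandas 2.3.3 and Python 3.11.15.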

Additional observations from a re-analysis of the deposited data

Results flagged for a closer look

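The mutant to wild type ratio went in opposite directions at E16.5 and E18.5 for 7 of the 10 immediate early genes, each lower in the mutant at E16.5 and higher at E18.5. With 1 library per genotype and stage, none of these differences between stages was tested. The share of all genes with such a change was not counted, so the 7 cannot be called a trait of the group. Fosb stayed under 1 FPKM in every library. For Fos the log2 ratio was 1.55 at E18.5 against −0.52 at E16.5, a difference of 2.06, and both counting intervals excluded 0. For the others at least 1 interval included 0: the difference was 1.14 for Fosb, 1.10 for Junb, 0.78 for Ier2, 0.34 for Nr4a1, 0.23 for Zfp36 and 0.14 for Dusp1. The median log2 ratio of all genes was itself 0.01 at the earlier stage and 0.31 at the later, so a difference of that size was shared by the table. Centred on the median of genes that reached 1 FPKM in both, the E18.5 ratios of Nr4a1 (−0.07), Zfp36 (−0.23) and Dusp1 (−0.24) were no longer above 0. With the length and GC trend subtracted, those of Junb (−0.04), Ier2 (−0.22) and Fosb (−0.22) were below 0 as well. Of the 7, Fos alone then stayed above 0 at E18.5, at 1.05.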

How the results depend on the processing

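At E16.5 the count of members past 2-fold was 0 under every scaling, pseudocount and filter tried. At E18.5 it was 1, and became 4 at 1.5-fold and 0 with E16.5 wild type as the control. The E18.5 median log2 ratio of members, 0.22 as deposited, was −0.21 with library sums made equal, −0.073 centred on the median of all genes, −0.043 with the upper quartile made equal, −0.46 with the length and GC trend subtracted and −0.13 against E16.5 wild type. For E18.5 against E16.5 wild type, the 2 members past 2-fold became 0 with sums, centring, upper quartile or trend, and 1 with a pseudocount of 1 or at least 5 FPKM. The median there, −0.37, became −0.073, −0.034, −0.071 and 0.40 under the 4 scalings. For E18.5 against E16.5 Tbx18Gfp/Gfp, the 1 member past 2-fold (Fos, 2.01-fold) became 0 with sums made equal and with pseudocounts of 0.1 and 1, and 2, with Fosb, without a filter. In E18.5 wild type Fos rested on about 117 reads, Atf3 on 64 and Fosb on 53. Differences between embryos were not measured. No paired analysis was possible because the groups compared share fewer than 2 replicate numbers. An additive fit of genotype and stage over the 4 libraries, with 1 residual degree of freedom, was not made.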
